A study of Mus musculus with 24 samples.

Results

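The Nduf genes encode the nuclear subunits of mitochondrial complex I and several of the factors that assemble it, and their mRNA was measured here in the heart after a stroke of the brain. They were chosen by name: every row of the deposited expression table whose annotated gene symbol starts with Nduf, which gave 45 of 24011 named genes. Of these, 34 are complex I subunits, 8 are assembly factors named Ndufaf, 2 carry the name but are not counted as subunits here (Ndufa4, since placed in complex IV, and its relative Ndufa4l2), and 1 is a pseudogene, Ndufs5-ps. The core subunits encoded by mitochondrial DNA were not analysed here. The hearts came from C57BL/6J mice 8 weeks old, which had either an occlusion of the middle cerebral artery (MCAO, a model of ischemic stroke) or a sham operation, and were collected 24 h or 72 h later. Total RNA of each heart sample was hybridised to an Affymetrix array, with 6 arrays in each of the 4 groups: sham 24 h, MCAO 24 h, sham 72 h and MCAO 72 h. All groups share the same strain and age, no genotype was varied, and each time has its own sham controls. The labels do not say whether each array is a separate animal, so the p-values measure the spread between these arrays. For the 72 h samples a free-text line of the labels reads 24 h, and the titles, source names and time entries, which read 72 h, were followed.

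Complex I is the entry point of the respiratory chain: it takes electrons from NADH, passes them along a row of iron-sulfur clusters to ubiquinone, and pumps protons across the inner mitochondrial membrane. Its matrix arm holds an NADH-oxidising module (N) and a ubiquinone-reducing module (Q), its membrane arm holds the pumps, and a shell of accessory subunits surrounds the core. Assembly factors join the modules in steps and leave the finished enzyme. Heart muscle is densely packed with mitochondria and draws most of its ATP from this chain.

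The stretches just before the start sites of 5 Nduf genes are shown first, as examples of Nduf genes called lower at 24 h, at 72 h or at both times whose promoters differ in the short motifs they hold. Ndufs8 (gene ID 225887), Ndufa8 (68375), Ndufaf1 (69702), Ndufaf7 (73694) and Ndufaf8 (208501) were matched by gene ID to RefSeq promoters of the mouse build GRCm38.p6. Each sequence is the 250 bases before the annotated start, 5′ to 3′ on the gene's strand, with matches to any of the motifs searched in capitals.
Ndufs8, chr19:3912775-3913024, minus strand: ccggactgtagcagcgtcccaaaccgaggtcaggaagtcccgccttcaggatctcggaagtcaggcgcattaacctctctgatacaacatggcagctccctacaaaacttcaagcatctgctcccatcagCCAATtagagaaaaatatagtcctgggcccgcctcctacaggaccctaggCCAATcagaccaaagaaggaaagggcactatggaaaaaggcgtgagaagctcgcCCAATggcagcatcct
Ndufa8, chr2:36049339-36049588, minus strand: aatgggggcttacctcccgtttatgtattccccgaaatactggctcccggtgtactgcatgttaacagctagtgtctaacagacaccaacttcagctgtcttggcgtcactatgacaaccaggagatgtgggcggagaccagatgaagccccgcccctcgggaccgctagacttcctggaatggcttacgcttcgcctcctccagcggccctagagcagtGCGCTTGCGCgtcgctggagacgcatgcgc
Ndufaf1, chr2:119662835-119663084, minus strand: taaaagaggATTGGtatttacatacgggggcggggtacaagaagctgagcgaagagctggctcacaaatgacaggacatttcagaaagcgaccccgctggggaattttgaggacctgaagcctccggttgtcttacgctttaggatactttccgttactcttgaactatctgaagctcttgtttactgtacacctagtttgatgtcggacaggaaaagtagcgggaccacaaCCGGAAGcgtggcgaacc
Ndufaf7, chr17:78936885-78937134, plus strand: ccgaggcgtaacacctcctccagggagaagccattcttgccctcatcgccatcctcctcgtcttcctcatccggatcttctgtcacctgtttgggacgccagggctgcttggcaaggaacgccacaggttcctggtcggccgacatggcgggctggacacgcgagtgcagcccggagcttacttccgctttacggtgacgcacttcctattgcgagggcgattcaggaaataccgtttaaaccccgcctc
Ndufaf8, chr11:120098684-120098933, plus strand: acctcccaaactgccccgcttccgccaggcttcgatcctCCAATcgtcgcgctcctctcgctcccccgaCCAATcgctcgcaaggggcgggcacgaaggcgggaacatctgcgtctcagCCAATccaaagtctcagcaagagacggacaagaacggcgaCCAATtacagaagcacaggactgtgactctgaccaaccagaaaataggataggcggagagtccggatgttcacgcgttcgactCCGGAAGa
The capitals mark CCAAT, the letters bound by NF-Y, with 3 matches before Ndufs8, 1 before Ndufaf1 and 4 before Ndufaf8. They mark the NRF1 motif (GCGCA, any base, then GCGC) once, on the opposite strand before Ndufa8, where the match begins 30 bases before the start. They mark the ETS-family motif CCGGAAG before Ndufaf1, 18 bases before the start, and before Ndufaf8, 8 bases before it. Ndufaf7 holds no match to these letters in its window.

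The motif search read both strands, and overlaps between different motifs were allowed. It covered 39 of the 45 Nduf genes, which have 41 windows in the RefSeq table, and compared them with all 32851 windows of the same length. NRF1, a regulator of nuclear genes for mitochondrial proteins, had a match in 6 windows (14.6%), against 3.74% of all windows. Both overlapping windows of Ndufa5 are among the 6 and hold the same site, 190 and 26 bases before their starts, so it is counted in each. The ETS letters were in 5 windows (12.2%), against 6.91% of all, and CCAAT was in 13 (31.7%), against 33.8% of all. AAGGTCA, read by the estrogen-related receptors, was in 1 window (2.44%), against 4.08% of all, and AAGATGG, read by YY1, was in 0 windows, against 4.49% of all. The median GC content was 58.4% in the Nduf windows and 52.4% in all windows. These counts are descriptions of letters in windows of fixed length, and the windows of the 2 sets differ in GC content.

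The arrays were checked before the Nduf genes were compared. Values are on a log2 scale, and the means over all genes differed by less than 0.01 between groups. The label heart was borne out by the 12 ventricular muscle markers (Myl2, Myh6, Tnnt2 and others), whose mean level lay between 12.28 and 12.66 on every array. MCAO 24 h stood apart from the other groups in genes known from sensory tissue: the first principal component of 1365 olfactory and vomeronasal receptor genes had a median of -1.35 there (range -3.01 to -0.16) and medians of 0.41 to 0.49 in the other groups. The median SD of a gene over 6 arrays was 0.218 in MCAO 24 h and 0.105 to 0.13 in the others. For the 34 subunits it was 0.235 in sham 24 h, 0.246 in MCAO 24 h, 0.156 in sham 72 h and 0.16 in MCAO 72 h.

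At 72 h after MCAO the mean levels of most complex I genes were lower than in sham hearts, though most of these changes did not pass the test. Of the 45 genes, 44 had a negative log2 change (33 of 34 subunits and 8 of 8 Ndufaf factors), with Ndufa3 as the exception at 0.01. This count of signs is over genes that covary between arrays and is not set against the share of all genes. With limma and Benjamini-Hochberg adjustment over all genes, 10 Nduf genes fell and 0 rose, while 1.19% of all genes were called lower and 1.17% higher (2.35% in either direction). The 10 were 6 subunits (Ndufs8, Ndufv2, Ndufs4, Ndufa12, Ndufa8 and Ndufc1) and 4 assembly factors (Ndufaf1, Ndufaf5, Ndufaf6 and Ndufaf7). The median log2 change was -0.198 over the subunits and -0.413 over the Ndufaf factors, against 0.002 over all genes. In 13 Nduf genes, 9 subunits and 4 assembly factors, all 6 MCAO arrays lay below all 6 sham arrays, and in 0 above, where 1.77% of all genes were separated in each direction.

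**Figure D1:**
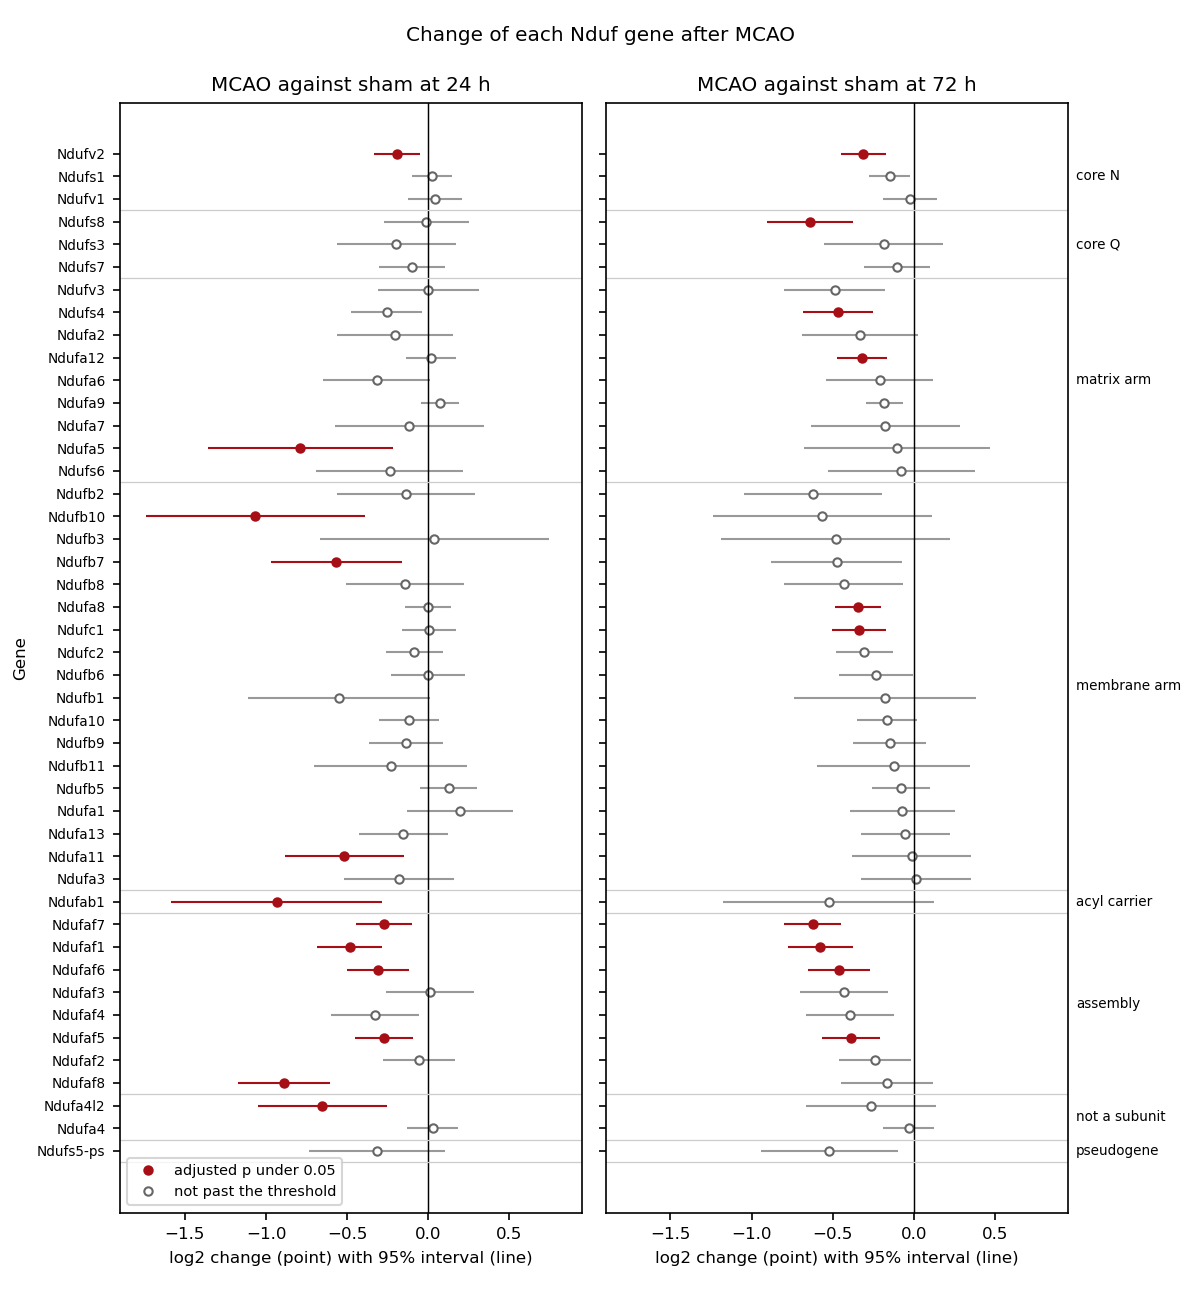
Log2 change of each of the 45 Nduf genes, MCAO minus sham, at 24 h (left) and 72 h (right), n = 6 arrays a group. Points are limma estimates, lines are 95% intervals and filled red points passed an adjusted p of 0.05; at 72 h all points but that of Ndufa3 lie left of 0.

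Of the 3 measured core genes of the Q module and the 3 of the N module, 1 each fell at 72 h. In the Q module this was Ndufs8, which carries iron-sulfur clusters on the electron path to ubiquinone. Its log2 level ran from 10.82 to 11.17 in sham 72 h (median 10.92) and from 10.11 to 10.51 in MCAO 72 h (median 10.31). The groups did not overlap: the highest MCAO array, replicate 4, lay below the lowest sham array. Ndufs8 fell by 0.64 on the log2 scale (SE 0.13, 1.56-fold lower, limma adjusted p = 0.00454). At 24 h it ran from 10.08 to 11.21 in sham (median 10.82) and from 10.50 to 10.97 in MCAO (median 10.79), so the MCAO arrays lay inside the sham range, with a log2 change of -0.01 (SE 0.13). The other Q-module core genes, Ndufs3 and Ndufs7, had log2 changes of -0.19 and -0.10 at 72 h and did not pass the test.

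Ndufv2, an iron-sulfur subunit of the N module, was the 1 subunit called lower at both times. In sham 24 h it ran from 10.80 to 11.03 (median 10.93) and in MCAO 24 h from 10.47 to 10.89 (median 10.78), with replicates 5 and 6 of MCAO lowest and the groups overlapping. The change at 24 h was -0.19 (SE 0.07, limma adjusted p = 0.0422). That call was lost when any of 7 arrays was left out (MCAO 24 h replicates 4, 5 or 6, or sham 24 h replicates 1, 2, 3 or 6), with adjusted p up to 0.103. At 72 h it ran from 10.85 to 11.08 in sham (median 10.94) and from 10.51 to 10.80 in MCAO (median 10.62), with no overlap. Ndufv2 fell there by 0.31 (SE 0.07, 1.24-fold lower, limma adjusted p = 0.0104), a call kept with each array left out in turn. Ndufs1 and Ndufv1, which complete the measured N-module core, had log2 changes of -0.15 and -0.02 at 72 h, and neither passed.

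Among the 9 accessory subunits of the matrix arm, 2 fell at 72 h. Ndufs4 is a small subunit near the N module whose loss in mice serves as a model of Leigh syndrome. It ran from 9.78 to 9.96 in sham 72 h (median 9.82) and from 9.05 to 9.73 in MCAO 72 h (median 9.40), with replicates 5 and 6 of MCAO lowest and replicate 4 closest to sham. The groups did not overlap, and Ndufs4 fell by 0.47 (SE 0.10, 1.38-fold lower, limma adjusted p = 0.0125). At 24 h its range was 9.61 to 9.95 in sham and 9.27 to 9.84 in MCAO, a log2 change of -0.26 (SE 0.10) that did not pass (adjusted p = 0.0784).

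Ndufa12, an accessory subunit where the N and Q modules meet, ran from 11.69 to 12.11 in sham 72 h (median 11.78) and from 11.40 to 11.66 in MCAO 72 h (median 11.45). The groups were separated by 0.03 at their nearest arrays. It fell by 0.32 (SE 0.07, limma adjusted p = 0.0177). Without sham 72 h replicate 3, its highest array, the change was -0.26 (adjusted p = 0.0517), and without MCAO 72 h replicate 2 or 5 the adjusted p was 0.0537 or 0.0554. At 24 h its change was 0.02 (SE 0.07). Ndufa9 and Ndufv3 had log2 changes of -0.18 and -0.49 at 72 h with adjusted p of 0.0906 and 0.0936, and the MCAO arrays of Ndufa9 all lay below the sham arrays.

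Of the 18 accessory subunits of the membrane arm, 2 fell at 72 h. Ndufa8 is a disulfide-bonded subunit on the intermembrane-space side, and its promoter is the one shown with an NRF1 match. It ran from 12 to 12.22 in sham 72 h (median 12.08) and from 11.50 to 11.92 in MCAO 72 h (median 11.78), without overlap. Replicate 2 was the lowest MCAO array. Ndufa8 fell by 0.34 (SE 0.07, 1.27-fold lower, limma adjusted p = 0.00526). At 24 h its groups had the same mean, 11.93, and a log2 change of -0.00 (SE 0.07).

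Ndufc1, a small membrane-arm subunit, ran from 11.58 to 11.76 in sham 72 h (median 11.66) and from 11.19 to 11.54 in MCAO 72 h (median 11.26). No MCAO array reached the lowest sham array. It fell by 0.34 (SE 0.08, limma adjusted p = 0.0192), and the adjusted p rose to between 0.0509 and 0.0619 when sham 72 h replicate 1 or MCAO 72 h replicate 2, 5 or 6 was left out. Ndufc2, another small subunit of that arm, had a change of -0.30 and an adjusted p of 0.0548. Ndufb2, a small membrane-arm subunit, had a change of -0.62 with an SE of 0.20 that did not pass (adjusted p = 0.130). Ndufa10 and Ndufb9 were separated between groups with changes of -0.17 and -0.15 that did not pass either.

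**Figure D2:**
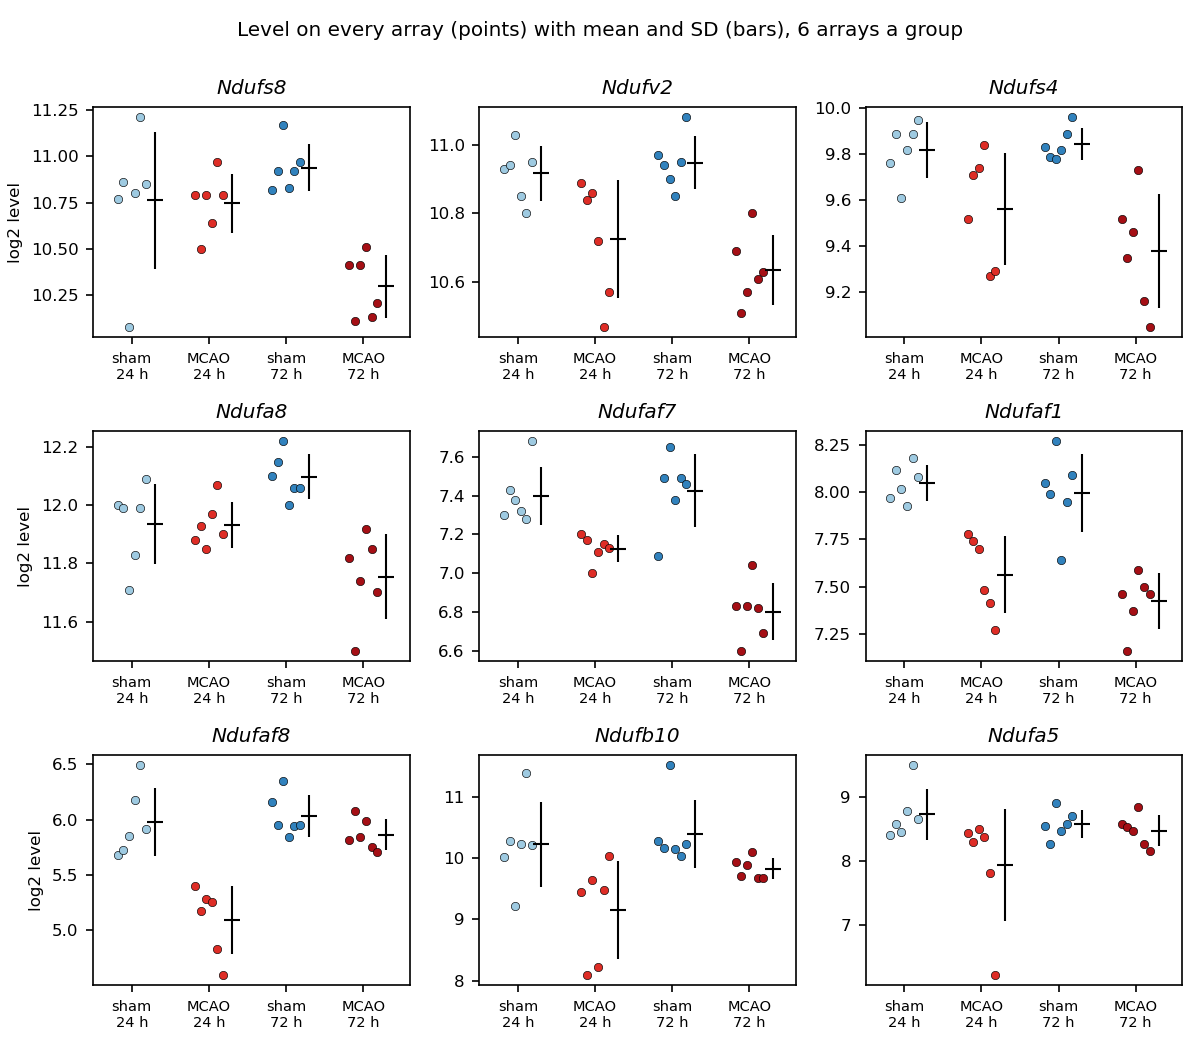
Log2 level of 9 Nduf genes on every array (points, 6 a group), with the mean and SD of each group (bars). Ndufs8 ran from 10.11 to 10.51 in MCAO 72 h and from 10.82 to 11.17 in its sham group, whereas Ndufaf8 was lowest in MCAO 24 h; each panel has its own vertical scale.

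Of the 8 assembly factors named Ndufaf, 4 were called lower at both times. With array weights the 24 h calls of Ndufaf5, Ndufaf6 and Ndufaf7 were lost (limma adjusted p = 0.0924, 0.143 and 0.0748). The 24 h call of Ndufaf6 was also lost when only the 24 h groups were fitted (limma adjusted p = 0.0955). At 24 h 5 fell (Ndufaf1, Ndufaf5, Ndufaf6, Ndufaf7 and Ndufaf8), when 10.8% of all genes were called lower and 11.1% higher, and at 72 h 4 fell. Their mean level per array was 6.508 ± 0.0897 in sham 24 h and 6.183 ± 0.0714 in MCAO 24 h, and 6.523 ± 0.121 in sham 72 h and 6.114 ± 0.0795 in MCAO 72 h (SD, n = 6). Every MCAO array lay below every sham array of its time in this mean, at 24 h by a margin of 6.2358 against 6.3817. The median log2 change was -0.290 at 24 h, against 0.008 over all genes.

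Ndufaf1 belongs to the assembly complex that builds the membrane arm. In sham 24 h it ran from 7.93 to 8.18 (median 8.05) and in MCAO 24 h from 7.27 to 7.78 (median 7.59), without overlap. It fell by 0.48 at 24 h (SE 0.10, 1.40-fold lower, limma adjusted p = 0.00108). In sham 72 h it ran from 7.64 to 8.27 (median 8.02) and in MCAO 72 h from 7.16 to 7.59 (median 7.46), again without overlap, with sham replicate 4 closest to the MCAO arrays. The fall at 72 h was 0.58 (SE 0.10, 1.49-fold lower, limma adjusted p = 0.00108). Both calls were kept with each array left out in turn. With the receptor-gene component as a covariate the change at 24 h was -0.14 and did not pass (adjusted p = 0.695). That component ran from -3.01 to -0.16 in MCAO 24 h and from 0.27 to 1.28 in sham 24 h. Without overlap, this fit cannot tell the component from MCAO.

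Ndufaf7, a methyltransferase that modifies a core subunit during assembly, was lower at both times. It ran from 7.28 to 7.68 in sham 24 h (median 7.35) and from 7.002 to 7.20 in MCAO 24 h (median 7.14). The groups did not overlap, and the fall was 0.27 (SE 0.08, limma adjusted p = 0.0223), or 0.22 with an adjusted p of 0.0624 without sham 24 h replicate 6, its highest array. At 72 h it ran from 7.09 to 7.65 in sham (median 7.48) and from 6.60 to 7.04 in MCAO (median 6.83). Sham replicate 1 was the lowest sham array and still lay above every MCAO array. The fall was 0.62 (SE 0.08, 1.54-fold lower, limma adjusted p = 0.00011), with the lowest p of the Nduf genes at this time.

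Ndufaf6, needed early in assembly, ran from 5.49 to 5.75 in sham 24 h (median 5.59) and from 4.82 to 5.53 in MCAO 24 h (median 5.36), with MCAO replicate 6 far below the other 5. Its fall was 0.31 (SE 0.09, limma adjusted p = 0.0189), or 0.20 with an adjusted p of 0.0543 without MCAO replicates 5 and 6. At 72 h it ran from 5.53 to 5.83 in sham (median 5.63) and from 5.02 to 5.37 in MCAO (median 5.19), and the groups did not overlap. The fall was 0.46 (SE 0.09, 1.38-fold lower, limma adjusted p = 0.00489).

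Ndufaf5 hydroxylates a core subunit of the Q module. It ran from 4.67 to 4.88 in sham 24 h (median 4.85) and from 4.44 to 4.64 in MCAO 24 h (median 4.57). Those groups did not overlap, and it fell by 0.27 (SE 0.09, limma adjusted p = 0.0251). The adjusted p was 0.0513 or 0.0514 without MCAO 24 h replicate 2 or 3. At 72 h it ran from 4.50 to 5.17 in sham (median 4.98) and from 4.38 to 4.72 in MCAO (median 4.56), where sham replicate 4, at 4.50, lay inside the MCAO range. The fall was 0.39 (SE 0.09, limma adjusted p = 0.0119).

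Ndufaf8, which works with Ndufaf5, was lower at 24 h, while its change at 72 h did not pass. It ran from 5.68 to 6.49 in sham 24 h (median 5.89) and from 4.60 to 5.40 in MCAO 24 h (median 5.22), without overlap. The fall was 0.89 (SE 0.14, 1.85-fold lower, limma adjusted p = 9.75e-05), or 0.24 with an adjusted p of 0.559 with the receptor-gene covariate. That covariate did not overlap between MCAO 24 h and sham 24 h, so its fit cannot tell it from MCAO. At 72 h it ran from 5.84 to 6.35 in sham (median 5.95) and from 5.71 to 6.08 in MCAO (median 5.83), and the change was -0.16 (SE 0.14, adjusted p = 0.865). The difference between the changes at 72 h and 24 h was 0.72 (SE 0.19) and did not pass (adjusted p = 0.0522).

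The other Ndufaf genes did not pass at either time. Ndufaf3 and Ndufaf4, which help to assemble the Q module, had log2 changes of 0.01 and -0.33 at 24 h and of -0.43 and -0.39 at 72 h. Ndufaf2, a relative of Ndufa12 that acts late in assembly, had changes of -0.06 and -0.24. All 3 had unadjusted limma p below 0.05 at 72 h. Ndufaf3, Ndufaf4 and Ndufaf2 ranked 793, 1037 and 2218 by p there among the 24011 genes.

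**Figure D3:**
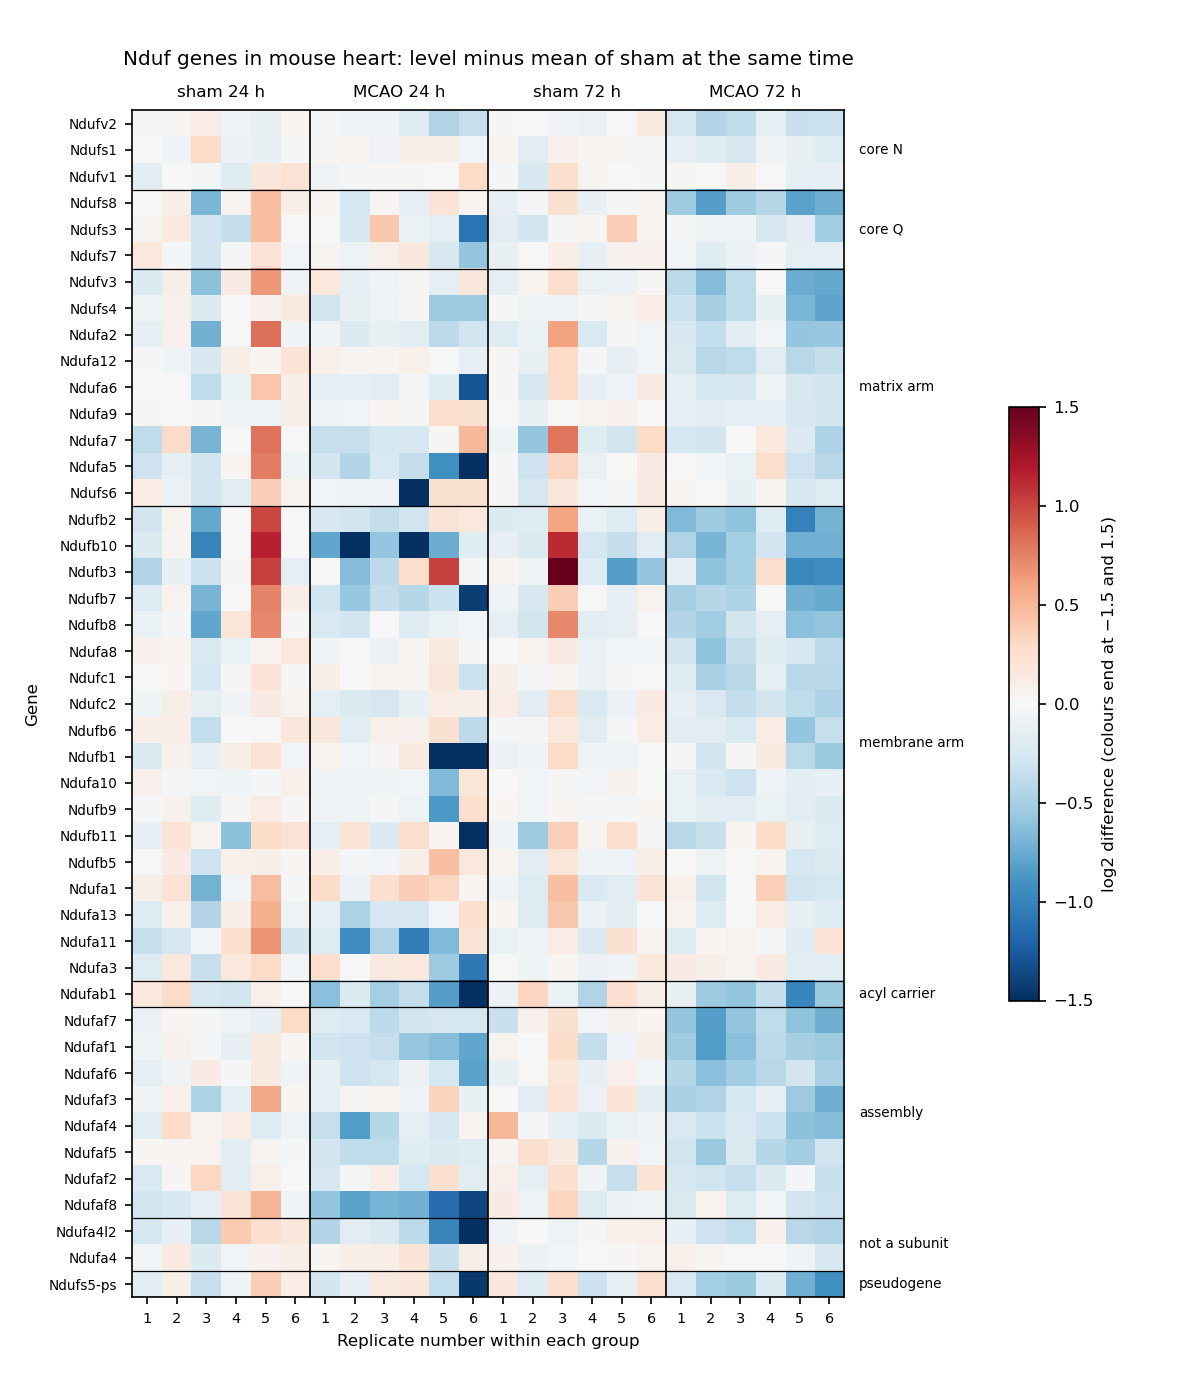
Level of each of the 45 Nduf genes on each of the 24 arrays as the log2 difference from the mean of the sham arrays of the same time (blue lower, red higher, colours end at -1.5 and 1.5). MCAO 72 h is blue for nearly all genes, sham 24 h replicate 5 and sham 72 h replicate 3 are red for many subunits, and MCAO 24 h replicates 5 and 6 are dark blue for a few.

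At 24 h after MCAO some subunits were called lower, and no subunit was separated between groups. With limma, 12 of the 45 Nduf genes fell and 0 rose, where 21.8% of all genes were called in either direction (10.8% lower). The 12 were 6 of 34 subunits (Ndufv2, Ndufa5, Ndufb10, Ndufa11, Ndufb7 and Ndufab1), the 5 assembly factors and Ndufa4l2. Of the subunits, 25 had a negative change, with a median of -0.138. In 0 subunits were the groups separated, and in 4 Ndufaf genes (Ndufaf1, Ndufaf5, Ndufaf7 and Ndufaf8) all MCAO arrays were lower, where 2.65% of all genes were; in 0 Nduf genes were they all higher, against 2.88% of all genes. With the receptor-gene component as a covariate 0 Nduf genes passed at 24 h, with array weights 3 did, and in a fit of the 24 h groups alone 4 did, all of them Ndufaf factors. The receptor-gene component did not overlap between MCAO 24 h and sham 24 h, so the fit with it cannot tell it from MCAO. Without sham 24 h replicate 5 the test called 1 subunit, and the count of all Nduf genes was 7 without that array or without sham 24 h replicate 6. With 1 array left out, the subunits called were 2 without sham 24 h replicate 2 or 6, and 3 without sham 24 h replicate 4 or MCAO 24 h replicate 2, 5 or 6. The shares of all genes called in these other fits are not given here, so the counts are not set against them.

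Ndufb10, a membrane-arm subunit on the intermembrane-space side, ran from 9.22 to 11.39 in sham 24 h (median 10.22) and from 8.10 to 10.04 in MCAO 24 h (median 9.46). MCAO replicates 2 and 4, at 8.10 and 8.23, were lowest, sham replicate 5 was highest, and the groups overlapped. It fell by 1.07 (SE 0.32, 2.09-fold lower, limma adjusted p = 0.0217). The adjusted p was 0.0575, 0.0579 or 0.0610 without MCAO replicate 2, MCAO replicate 4 or sham replicate 5. At 72 h its range was 10.03 to 11.51 in sham and 9.67 to 10.10 in MCAO, a change of -0.56 (SE 0.32) that did not pass (adjusted p = 0.628).

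Ndufab1 is the mitochondrial acyl carrier protein, a complex I subunit that also serves mitochondrial fatty acid synthesis and iron-sulfur cluster assembly. It ran from 7.93 to 8.49 in sham 24 h (median 8.25) and from 5.14 to 8.00 in MCAO 24 h (median 7.63). MCAO replicate 6, at 5.14, was more than 2 log2 units below the next array, and replicate 2 lay inside the sham range. It fell by 0.93 (SE 0.31, limma adjusted p = 0.0348). The adjusted p was 0.0541 to 0.0671 without sham 24 h replicate 1, 2, 5 or 6, with falls of 0.88 to 0.93, and the call was kept, with a fall of 0.51 (adjusted p = 0.0161), without MCAO replicate 6. At 72 h the range was 7.75 to 8.52 in sham and 7.22 to 8.09 in MCAO, a change of -0.52 (SE 0.31, adjusted p = 0.657).

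Ndufa5, an accessory subunit of the Q module, ran from 8.42 to 9.50 in sham 24 h (median 8.63) and from 6.23 to 8.51 in MCAO 24 h (median 8.34). MCAO replicates 5 and 6, at 7.82 and 6.23, were the lowest. It fell by 0.79 (SE 0.27, limma adjusted p = 0.0418). Without MCAO replicate 6 the fall was 0.44 (adjusted p = 0.0536), and without MCAO replicate 5 or sham replicate 2, 4, 5 or 6 the adjusted p was 0.0543 to 0.108. At 72 h the change was -0.10 (SE 0.27).

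Ndufb7, a membrane-arm subunit, ran from 8.12 to 9.55 in sham 24 h (median 8.83) and from 7.39 to 8.51 in MCAO 24 h (median 8.42), with MCAO replicate 6 lowest. It fell by 0.57 (SE 0.19, limma adjusted p = 0.0391). That call was lost without MCAO 24 h replicate 2 or 6 or sham 24 h replicate 2, 4, 5 or 6, with adjusted p of 0.0568 to 0.108 and a fall of 0.40 without MCAO replicate 6. Its change at 72 h was -0.48 (SE 0.19, adjusted p = 0.290).

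Ndufa11, a membrane-arm subunit near the contact with complex III, ran from 4.52 to 5.54 in sham 24 h (median 4.72) and from 3.83 to 5.06 in MCAO 24 h (median 4.31). MCAO replicate 6 was above the sham median, and replicates 2 and 4 were lowest. It fell by 0.52 (SE 0.18, limma adjusted p = 0.0374), with adjusted p of 0.0507 to 0.104 without MCAO replicate 2, 4 or 5 or sham replicate 3, 4 or 5. At 72 h the change was -0.01 (SE 0.18).

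Ndufa4l2, a relative of Ndufa4 known as a target of hypoxia-inducible factor, ran from 7.09 to 7.89 in sham 24 h (median 7.53) and from 5.79 to 7.34 in MCAO 24 h (median 7.08). MCAO replicates 1, 5 and 6, at 7.06, 6.51 and 5.79, lay below all sham arrays, while the other 3 lay inside the sham range. It fell by 0.65 (SE 0.19, 1.57-fold lower, limma adjusted p = 0.0175). Without MCAO replicates 5 and 6 the change was -0.30 and did not pass (adjusted p = 0.0817). At 72 h it ran from 7.36 to 7.52 in sham and from 6.99 to 7.50 in MCAO, a change of -0.26 (SE 0.19, adjusted p = 0.799).

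Ndufa4, now counted with complex IV, did not pass at either time. It ran from 11.60 to 11.94 in sham 24 h, 11.47 to 12 in MCAO 24 h, 11.77 to 11.93 in sham 72 h and 11.62 to 11.94 in MCAO 72 h, with medians of 11.82, 11.90, 11.87 and 11.86. Its changes were 0.03 (SE 0.08) at 24 h and -0.03 (SE 0.08) at 72 h, with a 95% interval at 72 h of -0.19 to 0.12. The pseudogene Ndufs5-ps had changes of -0.32 and -0.52 and did not pass at either time; its probes may also read its parent gene.

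The change after MCAO was then compared between the times. The difference of the changes, 72 h minus 24 h, passed for 0 of 45 Nduf genes by limma, where 1.79% of all genes passed (0.991% higher and 0.8% lower). At an unadjusted p below 0.05 it was lower for 8 and higher for 1. For scale, Ndufa11, just above that cut at a limma p of 0.0540, ranked 4395 by p among the 24011 genes. Many genes outside the Nduf set thus lay below the cut too, and the 8 and 1 are not read as an excess. After Ndufaf8, the lowest p were those of Ndufa8 (-0.34, SE 0.10, adjusted p = 0.0665) and Ndufs8 (-0.63, SE 0.18, adjusted p = 0.0667), both with the larger fall at 72 h. With 1 array left out the count was between 0 and 3, and it was 3 without MCAO 24 h replicate 1, 2 without MCAO 24 h replicate 6, and 1 without MCAO 24 h replicate 3, sham 24 h replicate 1, 2 or 5, or sham 72 h replicate 3. The shares of all genes passing in those fits are not given here. The log2 change was lower at 72 h than at 24 h in 31 of the 45 genes. That count is over genes that covary between arrays and is not set against all genes. The genes called lower at both times were 5, namely Ndufv2, Ndufaf1, Ndufaf5, Ndufaf6 and Ndufaf7, out of 12 at 24 h and 10 at 72 h. Over all genes, 154 were lower at both times, out of 2583 at 24 h and 285 at 72 h.

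Between the sham groups 0 of 45 Nduf genes differed by limma, where 0.0208% of all genes did (0.00833% higher and 0.0125% lower at 72 h). At an unadjusted p below 0.05, 1 was higher at 72 h. It was Ndufa8, whose limma p of 0.0256 ranked 491 among the 24011 genes. The mean of sham 72 h was still the highest of the 4 group means for 26 of 34 subunits and 5 of 8 Ndufaf factors. MCAO 72 h had the lowest mean for 18 subunits and 7 Ndufaf factors, and MCAO 24 h for 14 subunits and 1 Ndufaf factor, Ndufaf8. These orders of group means are not set against those of all genes. The mean over the 34 subunits was 9.680 ± 0.227 in sham 24 h, 9.482 ± 0.118 in MCAO 24 h, 9.746 ± 0.156 in sham 72 h and 9.484 ± 0.143 in MCAO 72 h (SD, n = 6). In contrast to the Ndufaf mean, these subunit means overlapped between sham and MCAO at both times.

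Single arrays moved many subunits together. Sham 24 h replicate 5 was the highest of its group in 23 of 34 subunits and replicate 3 the lowest in 22. Sham 72 h replicate 3 was the highest in 24, and MCAO 72 h replicate 4 in 27. MCAO 24 h replicate 6 was the lowest in 12 and the highest in 8.

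The deviations of each array from its group mean were correlated over the 24 arrays, which share their normalization, as a description. The median Pearson r over 561 pairs of subunits was 0.29 (range -0.62 to 0.92), and over the 28 pairs of Ndufaf factors it was 0.14. Ndufa5, Ndufab1, Ndufb1, Ndufb7 and Ndufb11, a set picked after the values were seen, had a median r of 0.71 and were low together in MCAO 24 h replicate 6. Ndufb10, Ndufb3, Ndufa7, Ndufa11 and Ndufs8, picked in the same way, had a median r of 0.64 and were high together in sham 24 h replicate 5. Ndufa5, Ndufb1, Ndufb7 and Ndufb11 of the first set were also the highest of their group in that sham array. Between these sets the median r was 0.01 (range -0.54 to 0.67). The subunits with the smallest spread around their group means, Ndufa9 (SD 0.086) and Ndufs1 (SD 0.096), had r of -0.07 and -0.23 with the mean of the other subunits.

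**Figure D4:**
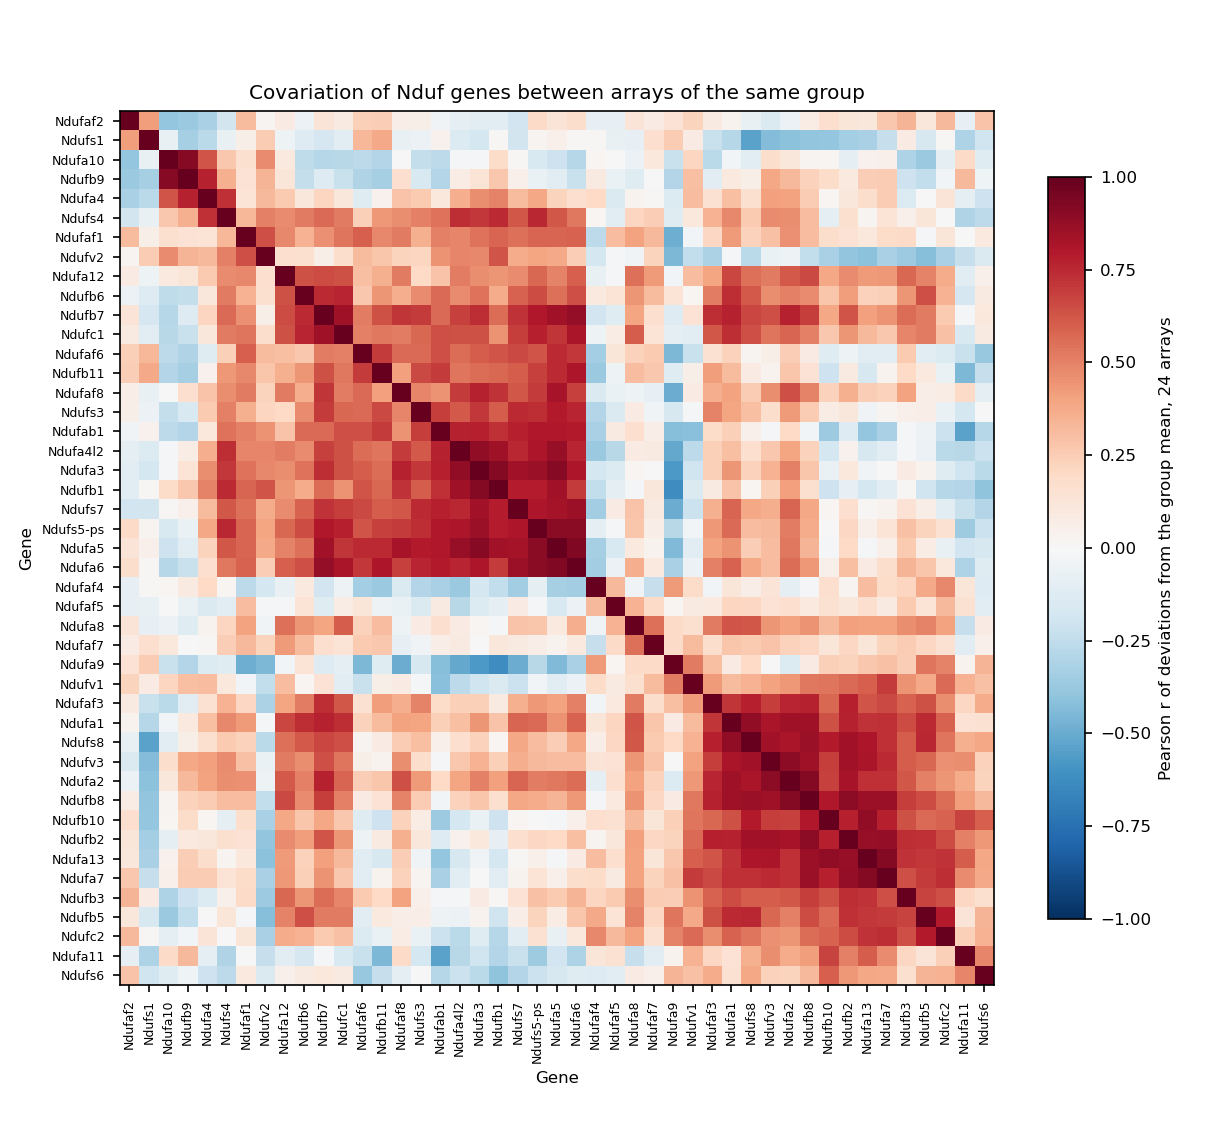
Pearson r between the 45 Nduf genes of the deviations of 24 arrays from their group means (blue negative, red positive), genes ordered by clustering. Red blocks hold Ndufa5 with Ndufab1 and Ndufb1, and Ndufs8 with Ndufb10 and Ndufb3; the median over all pairs of subunits is 0.29.

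The remaining genes of complex I assembly and of the chain were read from lists chosen by function, against the 10.8% of all genes called lower at 24 h and 1.19% at 72 h. Of 13 assembly factors with other names, 2 fell at 24 h and 0 rose: Tmem186 (-0.77, SE 0.10, limma adjusted p = 2.34e-05) and Ecsit (-0.47, SE 0.12, adjusted p = 0.00785), both members of the complex in which Ndufaf1 works. At 72 h 3 fell and 0 rose, among them Aifm1 (-0.38, SE 0.07, adjusted p = 0.00285), which helps to import disulfide-bonded subunits, and Tmem70 (-0.29, SE 0.07, adjusted p = 0.0335), which serves complexes I and V. Of the 8 complex II genes 2 fell at each time, with Sdhd lower at 24 h (-0.27) and at 72 h (-0.30). Of the 8 complex III genes 1 fell at 24 h and 3 at 72 h, including Uqcrc2 (-0.32, SE 0.05, adjusted p = 0.0014) and the Rieske iron-sulfur protein gene Uqcrfs1 (-0.42, SE 0.09, adjusted p = 0.00693). Of the 13 complex IV genes 0 passed at either time by limma; at an unadjusted p below 0.05, 1 was higher at 24 h and 2 were lower at 72 h. For scale, Ndufb1 at 24 h, with an unadjusted limma p of 0.0511, ranked 8377 by p among the 24011 genes. Ndufb6 at 72 h, at 0.0437, ranked 2500. Of the 12 complex V genes 2 fell at 24 h and 1 at 72 h. The median log2 change at 72 h was -0.291 for complex II, -0.353 for complex III, -0.207 for complex IV and -0.116 for complex V.

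**Figure D5:**
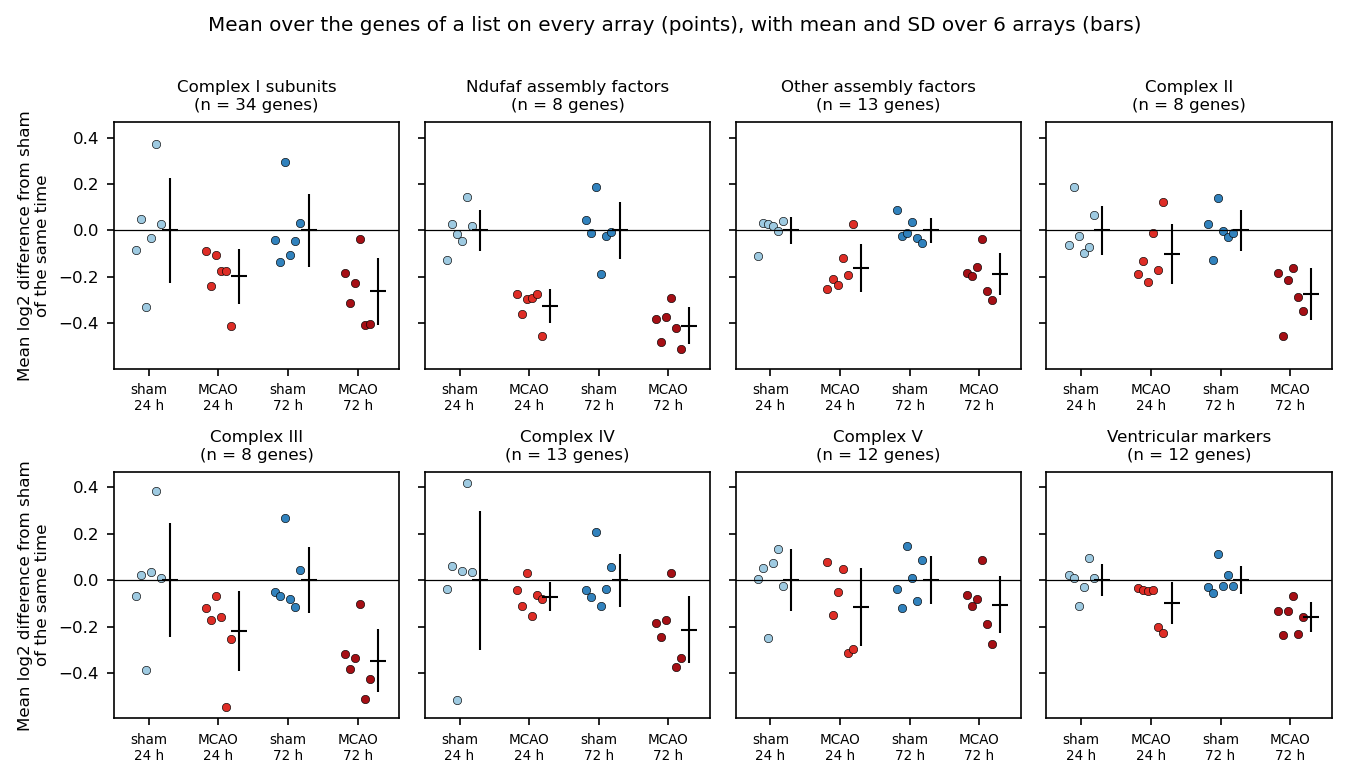
Mean over the genes of a list on every array as the log2 difference from the mean of sham at the same time (points, 6 a group), with the mean and SD (bars). The Ndufaf means of MCAO lie between -0.4563 and -0.2727 at 24 h and between -0.5099 and -0.2911 at 72 h, apart from sham, whereas the complex I subunit means overlap sham.

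Of the 13 TCA cycle genes, whose enzymes supply NADH to complex I, 3 fell at each time and 0 rose, where 10.8% and 1.19% of all genes were lower. Dlst was lower at 24 h (-0.28) and at 72 h (-0.33), and Idh3a at 72 h (-0.28, SE 0.05, limma adjusted p = 0.00354). Of 20 regulators of mitochondrial gene expression, 3 fell and 3 rose at 24 h, when 21.8% of all genes were called in either direction. Perm1, a muscle coregulator of oxidative genes, was lower (-0.72, SE 0.14, adjusted p = 0.000911), as was Ppargc1b (-0.53, SE 0.13, adjusted p = 0.00597). The regulators that rose were Tfb2m (0.67, SE 0.19), Nrip1 (0.39, SE 0.11) and Esrrb (0.44, SE 0.14). Their limma adjusted p were 0.0143, 0.0143 and 0.0305. At 72 h 1 fell, Tfb1m (-0.48, SE 0.10, adjusted p = 0.00797). The coactivator Ppargc1a had log2 changes of -0.22 and 0.11, its partner Esrra -0.39 and -0.16, and the mitochondrial DNA factor Tfam 0.35 and -0.18, and none of these passed.

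Markers of the cell types in the heart were measured beside these genes, because in bulk tissue fewer cells of a type and less RNA per cell cannot be told apart. Their counts stand against 10.8% of all genes lower and 11.1% higher at 24 h, and 1.19% and 1.17% at 72 h. Of the 12 ventricular markers 3 fell at 24 h and 1 at 72 h (Ckm, -0.66), and their mean shift was -0.0985 ± 0.09 and -0.160 ± 0.0649 (SD, n = 6). Their mean level ran from 12.39 to 12.60 in sham 24 h, 12.28 to 12.48 in MCAO 24 h, 12.49 to 12.66 in sham 72 h and 12.30 to 12.47 in MCAO 72 h. Of 7 atrial markers 1 rose at 24 h, and the mean of the list ran from 5.39 to 6.57 in sham 24 h, 5.88 to 9.10 in MCAO 24 h, 5.65 to 8.33 in sham 72 h and 5.76 to 8.87 in MCAO 72 h. Of 7 fibroblast markers 4 fell at 24 h and 0 at 72 h, with mean shifts of -0.453 and -0.344. Of 7 endothelial markers 2 rose and 1 fell at 24 h, and 1 rose and 1 fell at 72 h: Kdr was lower at both times (-0.88 and -0.68) and Pecam1 higher (0.27 and 0.29). Of 7 smooth muscle and pericyte markers 2 fell at 24 h, Acta2 (-0.84) and Tagln (-0.50), and 0 passed at 72 h, where 2 were lower at an unadjusted p below 0.05. Of 7 macrophage markers 1 rose at 24 h (Cd163, 0.66), as did 1 of 7 neutrophil markers (Retnlg, 0.64), and 0 of either list passed at 72 h by limma; at an unadjusted p below 0.05, 1 macrophage marker was higher and 2 were lower, and no neutrophil marker was in either direction. For scale, Ndufb6 at 72 h, with an unadjusted limma p of 0.0437, ranked 2500 by p among the 24011 genes. The part of these cell types in the lower Nduf levels was not tested.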

How the data were processed

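Gene expression in mouse heart was measured on 24 Affymetrix arrays. The authors deposited 1 table of log2 values for 24973 Entrez gene identifiers, and judged from the values the arrays had been brought to 1 distribution before deposit; how probes were summarised and background was corrected is not stated in the labels or in the table. Per the submitters' processing notes the tool HOMER was named, with no role. Per the labels' protocols the total RNA was isolated with Trizol, and biotin-labelled cRNA was made from it. Symbols came from the platform annotation, which named 24015 identifiers; the 958 unnamed ones were left out, and where identifiers shared a symbol only the brightest on average was used, giving 24011 genes.

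The 4 group means were fitted with limma 3.58.1 in R 4.3.3 on the deposited log2 values (20 residual degrees of freedom, empirical Bayes moderation), with Benjamini-Hochberg adjustment over all genes of a contrast at 0.05; intervals are 95% intervals of that fit, without adjustment. The script was tested on simulated data. The number of arrays limits the precision, and read depth does not apply. Levels are not compared between genes, since probes differ in brightness. Each list was described by its counts of called genes beside the shares over all genes. Medians were given for the subunits, the Ndufaf factors and, at 72 h, complexes II to V.

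Members, lists and tests were chosen with earlier results of these data known. Per-array values and full statistics were given for Nduf genes past the threshold (at most 4 with the lowest p in each role group and contrast) and for Ndufa4 and Ndufa4l2. Of other lists at most 2 per contrast were named, with Ppargc1a, Esrra and Tfam, and the regulators that rose at 24 h were added. Of the 8 Ndufaf factors, the fifth past the threshold at 24 h, Ndufaf5, is described in full because it passed at 72 h. Alternatives changed the prior, the scaling (quantile or median), the averaging of identifiers and the weights of arrays, dropped dim genes, used the replicate number as a block or a covariate from receptor genes, restricted the fit to the compared groups, or left arrays out. Sham 24 h replicate 5 and sham 72 h replicate 3 were each the highest of their group in most complex I subunits. The fit that drops these sham arrays, and the fit that drops 4 arrays, were chosen after seeing the data.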

Additional observations from a re-analysis of the deposited data

Results flagged for a closer look

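In groups of 6 arrays, an array was singled out where its gap to the nearest other array exceeded 0.625 of the range of the group (Dixon's 95% value). Of 80 groups of values examined (18 genes and 2 list means in 4 groups), 11 held such an array, where chance gives about 1 in 20, or 4. The 80 groups are not independent, since the genes covary between arrays and most were included for passing a test. The 11 are therefore not read as an excess over 4. MCAO 24 h replicate 6 was far below its group in 5 genes: Ndufa5 at 6.23, Ndufab1 at 5.14, Ndufaf6 at 4.82, Ndufb7 at 7.39 and Ndufc1 at 11.25. MCAO 24 h replicate 5 was far below its group in Ndufa4, at 11.47. Sham 72 h replicate 3 was far above its group in Ndufa12, at 12.11, and Ndufb10, at 11.51. Sham 24 h replicate 5 was far above in Ndufa5, at 9.50, sham 24 h replicate 6 far above in Ndufaf7, at 7.68, and sham 24 h replicate 4 far below in Ndufaf5, at 4.67.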

How the results depend on the processing

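At 24 h the count of Nduf genes called lower (12) was 3 with array weights, 4 when only the 24 h groups were fitted (0 subunits, 4 Ndufaf), 0 with the receptor-gene component as a covariate, which itself lay apart in MCAO 24 h, and 7 without 4 arrays (replicate 5 of sham 24 h, replicate 3 of sham 72 h and replicates 5 and 6 of MCAO 24 h); leaving out 1 array gave 7 to 13. With that covariate Ndufa5 turned to 0.2152 and Ndufv2 to 0.0268 at 24 h, neither passing (adjusted p = 0.850 and 0.935), and the median of the subunits was 0.0342 and that of the Ndufaf factors -0.239. At 24 h the calls of Ndufaf1 and Ndufaf8 were lost under that covariate alone among 36 settings. At 72 h the count (10) was 21 with array weights, 18 when only the 72 h groups were fitted, 16 without the MCAO arrays among those 4, and 16 without all of them; leaving out 1 array gave 8 to 13, and Ndufa8, Ndufs8, Ndufv2, Ndufs4, Ndufaf1, Ndufaf5, Ndufaf6 and Ndufaf7 kept their call in all 36 settings. The difference between times (0) was 1 without the MCAO arrays among those 4, 1 without the sham arrays among those 4, and 3 without all of them, with 0 to 3 when 1 array was left out. The sham comparison gave 0 under every alternative run. The share of all genes called under each alternative is not given here, so these counts are not set against it. The cause of these changes was not tested. With the replicate number as a block the counts were 10 at 24 h, where Ndufb7 and Ndufv2 lost their call, 10 at 72 h and 0 for the difference, and no other call changed. The labels' numbers were not treated as pairs: 1 of 12 same-numbered pairs had deviations correlated above 0.1 (r from -0.0695 to 0.141). The table holds no detection call, so signal over background was not analysed for dim genes such as Ndufaf2, Ndufaf5 and Ndufa11, whose mean levels of 4.41, 4.71 and 4.65 lie near the median of all gene means, 4.15.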

Other observations

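At 24 h, when 11.1% of all genes were called higher and 10.8% lower, the following lists of mitochondrial genes held calls in both directions; at 72 h the shares were 1.17% and 1.19%. Of 12 iron-sulfur cluster assembly genes 3 rose and 1 fell: Iba57, which serves late cluster assembly, rose by 0.56 (SE 0.07, limma adjusted p = 7.82e-06) and Isca2 by 0.32 (SE 0.10, adjusted p = 0.025). At 72 h 1 rose, the iron importer Slc25a28 (0.81, SE 0.14, adjusted p = 0.00214). Of 9 mitochondrial proteases 2 rose and 1 fell at 24 h, with Clpx up by 0.68 (SE 0.14, adjusted p = 0.00136) and Oma1 down (-0.40, SE 0.12, adjusted p = 0.0199), and 0 passed at 72 h, where 0 were higher and 1 was lower at an unadjusted p below 0.05. Of 17 import and structure genes 4 fell and 1 rose at 24 h, including the chaperonin partner Hspe1 (-0.82, SE 0.20, adjusted p = 0.00572) and the prohibitin gene Phb (-1.18, SE 0.32, adjusted p = 0.0105); 0 passed at 72 h, where 5 were lower at an unadjusted p below 0.05. For scale, Ndufb6 at 72 h, with an unadjusted limma p of 0.0437, ranked 2500 by p among the 24011 genes. Of 8 genes for other routes into ubiquinone, Dhodh was lower at both times (-0.30 and -0.30), and Prodh was higher at 24 h (0.47, SE 0.15, adjusted p = 0.0284).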
